A study of Homo sapiens with 5 samples.

Results

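The genes described here are the transcription factor NRF2 (gene symbol NFE2L2), its inhibitor KEAP1 and 7 of the genes that NRF2 is known to switch on: NQO1, HMOX1, GCLM, GCLC, TXNRD1, SRXN1 and OSGIN1. They were taken by symbol in the GENCODE annotation, giving 9 genes of 64252 in the count table, and all 9 passed the filter on low counts that left 15341 genes to test. RNA was sequenced from 5 libraries of RPE-1 cells, a human retinal pigment epithelial line immortalised with telomerase, 48 hr after transfection. The 3 siCtrl libraries received the on-target control siRNA and are labelled WT, and the 2 siFAM53C libraries received a pool of siRNAs against FAM53C and are labelled FAM53C KD. The study's methods speak of duplicates, while the labels list a further control library, and which of the 3 that is cannot be told here. The labels give the same dose of 5 µM for both conditions and no further allele or agent. They do not say whether libraries of a condition came from separate cultures, so the p-values measure only the spread between these libraries, which may be technical. All libraries come from 1 cell line, the knock-down is partial, and each library averages all its cells, so fewer expressing cells and less RNA per cell cannot be told apart.

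NRF2 drives the main transcriptional defence against oxidants and electrophiles. In resting cells KEAP1 presents NRF2 to the CUL3 ubiquitin ligase, and NRF2 is degraded as fast as it is made. Oxidants and electrophiles modify cysteines of KEAP1, NRF2 then accumulates, enters the nucleus with small MAF proteins and binds antioxidant response elements near its target genes. A separate route to degradation uses the kinase GSK3B and the ubiquitin ligase adaptor BTRC. NRF2 activity is therefore set largely at the level of the protein, which RNA counts do not measure. The retinal pigment epithelium lies behind the photoreceptors, takes up their shed membranes and is exposed to light and oxygen throughout life.

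The core of the antioxidant response element is written TGACNNNGC. The sites shown next are those found from 250 bases before to 50 bases after a transcription start listed by RefSeq (GRCh38.p14). They are printed to let a reader see which of the genes hold this core close to a start. The core was searched on both strands, and 8 of the 9 genes had at least 1 window, 11 windows in all; HMOX1 was not among them. It was found for 3 of the 8 genes, GCLM, TXNRD1 and KEAP1, against 16.1% of 27305 genes with a window and 13.3% of 35116 windows. Each line runs 5′ to 3′ along the strand of the gene, and capitals mark the core. Where the core lies on the opposite strand, capitals mark its reverse complement.
GCLM, chr1:93909446-93909474, minus strand: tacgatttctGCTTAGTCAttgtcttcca
KEAP1, chr19:10502807-10502835, minus strand: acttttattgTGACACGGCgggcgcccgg
KEAP1, chr19:10502784-10502812, minus strand: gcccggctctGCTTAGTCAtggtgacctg
TXNRD1, chr12:104215670-104215698, plus strand: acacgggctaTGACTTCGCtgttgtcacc
TXNRD1, chr12:104215761-104215789, plus strand: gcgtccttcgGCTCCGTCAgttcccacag
TXNRD1, chr12:104286920-104286948, plus strand: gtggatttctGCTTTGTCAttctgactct

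The GCLM core ran from position -34 to -26, counted from its start at 0. A related pattern, TGAGNNNGC, was found for 6 of the 8 genes (GCLM, KEAP1, TXNRD1, NFE2L2, NQO1 and OSGIN1), against 21.6% of all genes with a window. These are matches of letters in a short window and not measured binding sites, and a gene without a match may hold one elsewhere.

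The libraries held between 19260124 and 25615415 counts. FAM53C, the targeted gene, stood at 60.9, 59.7 and 57.6 CPM (counts scaled to a common library total, here adjusted by the TMM method) in siCtrl and at 14.2 and 22.3 CPM in siFAM53C. It was lower by -1.71 on the log2 scale (SE 0.19, edgeR quasi-likelihood test, adjusted p = 0.00363). The libraries also differed in a way the conditions do not explain. Along the first principal component of all genes tested, which held 39.8% of the variance, siCtrl 1 and siCtrl 2 scored -31.5 and -47.4, siCtrl 3 and siFAM53C 2 scored 33.7 and 44.9, and siFAM53C 1 lay between them at 0.26. The labels give no batch for this split. Each gene is therefore also compared within it, as siFAM53C 1 against siCtrl 1 and 2 and as siFAM53C 2 against siCtrl 3. The component alone places siFAM53C 1 on neither side, and its grouping follows earlier results of these data. FAM53C itself differed by -2.08 and -1.37 on the log2 scale in these comparisons. The split and the depth of knock-down can therefore not be told apart in them. In the names of the count columns, siCtrl 3 and siFAM53C 2 both carry the number 3, although the title of the latter numbers it 2. Of the markers of the labelled cell type, the keratins KRT8 (236 to 328 CPM) and KRT18 (148 to 182 CPM) and the pigment epithelial factors MITF (34.0 to 48.8 CPM) and OTX2 (13.5 to 17.1 CPM) were present. RPE65, a defining enzyme of the mature pigment epithelium, had a count of 0 in all 5 libraries, BEST1, RLBP1, TYR and PMEL reached at most 1.23 CPM, and the epithelial adhesion genes CDH1 and EPCAM at most 0.17 CPM. Of the mesenchymal markers, VIM (3226 to 4146 CPM) and FN1 (4719 to 7123 CPM) were high. COL1A1 was far lower than these, at 18.3, 15.8 and 18.6 CPM in siCtrl and at 29.2 and 29.4 CPM in siFAM53C. It was higher in siFAM53C by 0.74 on the log2 scale (SE 0.14, edgeR adjusted p = 0.0310). COL1A2 reached at most 0.37 CPM.

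None of the 9 genes was called in siFAM53C against siCtrl. With edgeR and Benjamini-Hochberg adjustment over all genes tested, 0 of 9 were lower and 0 were higher at an adjusted p of 0.05, where 3.47% of all genes tested were called lower and 0.489% higher. Of all calls 87.7% were lower, and 77.4% with library totals in place of TMM scaling. DESeq2 and limma-voom also called 0 in either direction. At an unadjusted p of 0.05, edgeR placed 1 gene lower (NFE2L2) and 1 higher (KEAP1), against 10.5% and 6.61% of all genes. Without siCtrl 3 these counts were 5 lower and 0 higher. That fit also called more of all genes at an adjusted p of 0.05, 886 lower and 414 higher against 533 and 75. Its share of all genes at the unadjusted threshold was not counted, so the 5 cannot be set against a background. The median log2 fold change over the 9 genes was -0.20, with 5 below 0 and 4 above, and the median over all genes tested was 0.016.

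NFE2L2, which encodes NRF2 itself, stood at 98.1, 105 and 110 CPM in siCtrl and at 82.6 and 84.6 CPM in siFAM53C. Both siFAM53C libraries lay below all 3 siCtrl libraries, and the means were 104 ± 6.01 (SD, n = 3) and 83.6 ± 1.41 (SD, n = 2). The fitted ratio of siFAM53C to siCtrl was 0.800, with a 95% interval from 0.678 to 0.944. On the log2 scale the difference was -0.32 (SE 0.10, edgeR unadjusted p = 0.0146, adjusted p = 0.162), which does not pass the threshold. The log2 difference was -0.30 between siFAM53C 1 and siCtrl 1 and 2, and -0.38 between siFAM53C 2 and siCtrl 3. By the annotation (GRCh38), NFE2L2 lies on chr2:177218667-177392756 (minus strand), where 3710 of its 14975 annotated exon bases are also exons of HNRNPA3, AGPS or a further gene on the opposite strand. The sources used here do not say whether reads were counted by strand, so reads from the shared bases cannot be assigned with certainty. The same holds for 575 exon bases of NQO1 and 305 of GCLC, which shares them with GCLC-AS1, and for none of the other 6 genes.

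KEAP1 (chr19:10486125-10503558, minus strand), the adaptor that delivers NRF2 for degradation, differed in the opposite direction. It stood at 73.5, 75.8 and 66.8 CPM in siCtrl and at 86.6 and 84.5 CPM in siFAM53C. Again the conditions did not overlap, with means of 72.1 ± 4.66 (SD, n = 3) and 85.6 ± 1.47 (SD, n = 2). The fitted ratio was 1.19, with a 95% interval from 1.00 to 1.41. The log2 difference of 0.25 (SE 0.11, edgeR unadjusted p = 0.0470, adjusted p = 0.285) did not pass the threshold. It was 0.21 and 0.34 within the split.

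The ratio of NFE2L2 to KEAP1 counts within a library needs no scaling between libraries. It was 1.33, 1.39 and 1.65 in siCtrl and 0.953 and 1.00 in siFAM53C. The inhibitor's counts were thus about level with those of NFE2L2 in both siFAM53C libraries and below them in all 3 siCtrl libraries. The ratio was chosen after these values were known and was not tested.

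**Figure D1:**
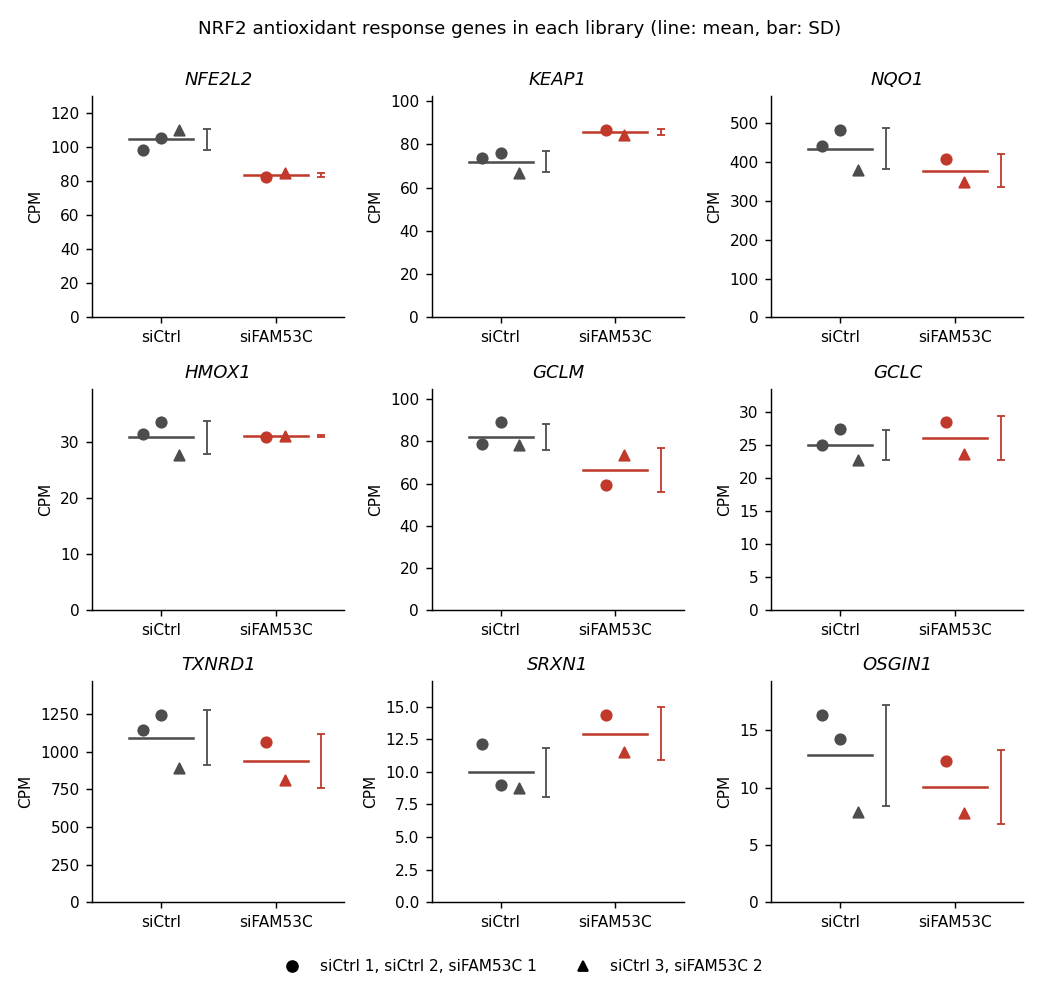
Normalised level (CPM, y axis from 0) of each of the 9 genes in the 3 siCtrl libraries (grey) and 2 siFAM53C libraries (red), with circles and triangles for the sides of the library split, a line at the mean and a bar for the SD. NFE2L2 and GCLM lie lower and KEAP1 lies higher in both siFAM53C libraries than in any siCtrl library, and the triangles of TXNRD1, NQO1 and OSGIN1 lie below the circles of the same condition.

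Of the 9 genes, 2 were lower without overlap in siFAM53C (NFE2L2 and GCLM) and 1 was higher (KEAP1). Among all genes tested, 18.8% were lower and 16.7% higher without overlap. With so few libraries, a count of this size on 9 genes lies close to the background.

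NQO1 (chr16:69706996-69726668, minus strand) reduces quinones with NADPH and is widely used as a readout of NRF2. It stood at 442, 483 and 380 CPM in siCtrl and at 408 and 348 CPM in siFAM53C. The conditions overlapped, since siFAM53C 1 lay above siCtrl 3. The log2 difference was -0.20 (95% interval -0.53 to 0.12, edgeR adjusted p = 0.533), and -0.18 and -0.13 within the split.

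HMOX1 (chr22:35380361-35394214, plus strand), the inducible enzyme that breaks down heme, had the smallest difference of the 9 genes in the edgeR fit over all 5 libraries. It stood at 31.4, 33.5 and 27.7 CPM in siCtrl and at 31.0 and 31.2 CPM in siFAM53C, both inside the siCtrl range. The fitted ratio was 1.01, with a 95% interval from 0.814 to 1.25 (edgeR adjusted p = 0.983). Its sign was not stable, with log2 differences of -0.067 and 0.17 within the split.

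GCLM and GCLC encode the modifier and catalytic subunits of glutamate-cysteine ligase, the enzyme that limits glutathione synthesis. GCLM (chr1:93885199-93909456, minus strand) stood at 78.7, 89.0 and 78.3 CPM in siCtrl and at 59.2 and 73.8 CPM in siFAM53C. Both siFAM53C libraries were lower than every siCtrl library, with a fitted ratio of 0.810 (95% interval 0.656 to 1.00). The log2 difference was -0.30 (SE 0.13, edgeR unadjusted p = 0.0513, adjusted p = 0.297). It was -0.50 between siFAM53C 1 and siCtrl 1 and 2, and only -0.086 between siFAM53C 2 and siCtrl 3.

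GCLC (chr6:53497341-53616970, minus strand), the catalytic partner, stood at 24.9, 27.3 and 22.7 CPM in siCtrl and at 28.3 and 23.6 CPM in siFAM53C. The conditions overlapped, and the log2 difference was 0.057 (95% interval -0.29 to 0.41, edgeR adjusted p = 0.901). The GCLM to GCLC ratio of counts was 3.16, 3.26 and 3.44 in siCtrl and 2.09 and 3.13 in siFAM53C. Only siFAM53C 1 stood clearly below the siCtrl range of this ratio, and siFAM53C 2 lay just under it.

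**Figure D2:**
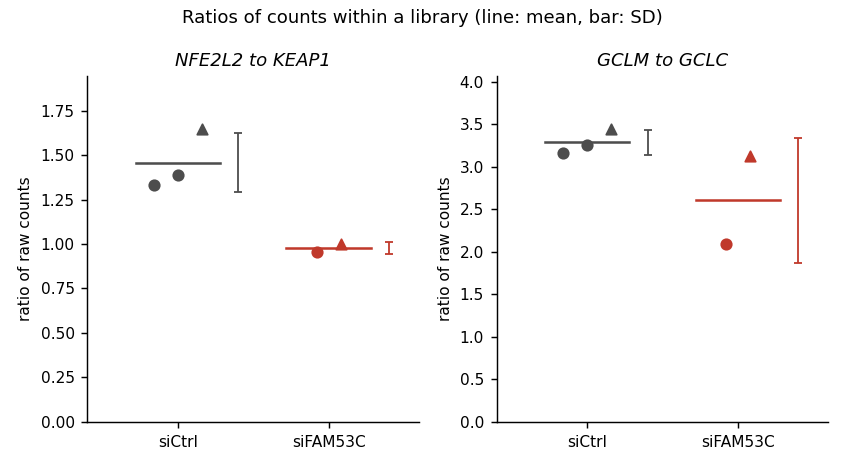
Ratio of raw counts (y axis from 0) of NFE2L2 to KEAP1 and of GCLM to GCLC in the 3 siCtrl libraries (grey) and 2 siFAM53C libraries (red), with circles for siCtrl 1, siCtrl 2 and siFAM53C 1, triangles for siCtrl 3 and siFAM53C 2, a line at the mean and a bar for the SD. The NFE2L2 to KEAP1 ratio lies between 1.33 and 1.65 in siCtrl and at 0.953 and 1.00 in siFAM53C, and the GCLM to GCLC ratio is spread from 2.09 to 3.13 in siFAM53C.

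TXNRD1 (chr12:104215779-104350307, plus strand), the cytosolic thioredoxin reductase, stood at 1145, 1244 and 891 CPM in siCtrl and at 1068 and 814 CPM in siFAM53C. The conditions overlapped, and the lowest library of each lay on the same side of the library split. The log2 difference was -0.22 (95% interval -0.64 to 0.21, edgeR adjusted p = 0.626), and -0.16 and -0.13 within the split.

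SRXN1 (chr20:646615-653200, minus strand) encodes sulfiredoxin, which repairs overoxidised peroxiredoxins. It stood at 12.1, 9.0 and 8.75 CPM in siCtrl and at 14.4 and 11.5 CPM in siFAM53C, and siCtrl 1 lay above siFAM53C 2. Its log2 difference was 0.37 (95% interval -0.14 to 0.89, edgeR adjusted p = 0.455). It was 0.45 and 0.39 within the split, on counts of only 167 to 380 per library.

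OSGIN1 (chr16:83931311-83966332, plus strand), an oxidative stress-induced growth inhibitor, was the most variable of the 9 genes. It stood at 16.3, 14.2 and 7.91 CPM in siCtrl and at 12.3 and 7.77 CPM in siFAM53C, a coefficient of variation of 34.2% among the siCtrl libraries alone. The log2 difference was -0.35 (95% interval -1.15 to 0.45, edgeR adjusted p = 0.682), and it ranged from -0.73 without siFAM53C 1 to -0.063 without siFAM53C 2. It was -0.31 in siFAM53C 1 against siCtrl 1 and 2 and only -0.026 in siFAM53C 2 against siCtrl 3.

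**Figure D3:**
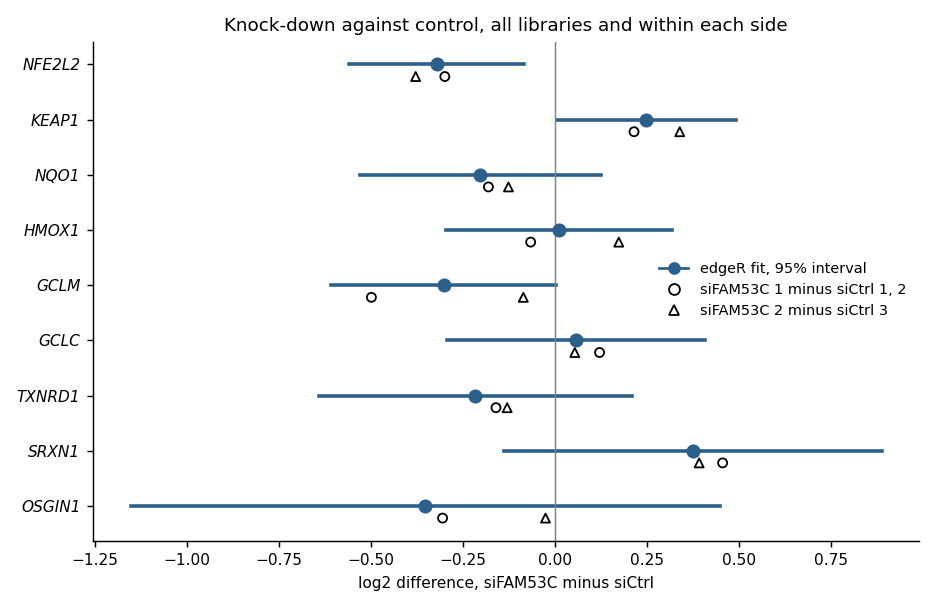
Log2 difference of siFAM53C minus siCtrl for each of the 9 genes (x axis), as the edgeR fit over 5 libraries with its 95% interval (blue) and as the difference of mean log2 CPM within each side of the library split (open circles and triangles). The intervals of NFE2L2 (-0.56 to -0.083) and KEAP1 (0.0043 to 0.49) lie on 1 side of 0, those of the other genes reach across it, and for GCLM and OSGIN1 the open symbols lie far apart.

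Within the split, 5 genes were lower in siFAM53C on both sides (NFE2L2, NQO1, GCLM, TXNRD1 and OSGIN1) and 3 were higher on both (KEAP1, GCLC and SRXN1), where 33.2% and 36.1% of all genes tested did so. Several of these genes differed more across the split than between the conditions. For TXNRD1 the libraries siCtrl 3 and siFAM53C 2 were lower than the others of their condition, by log2 differences of -0.42 in siCtrl and -0.39 in siFAM53C. For NQO1 these differences were -0.28 and -0.23. For OSGIN1 they were -0.94 and -0.66. In all, 6 of the 9 genes (NQO1, GCLC, TXNRD1, SRXN1, OSGIN1 and KEAP1) were lower in those libraries in both conditions and 1 (NFE2L2) was higher, against 34.0% and 35.0% of all genes tested. The sides were read from the same libraries, so these are descriptions with no test.

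When a term for the split was added to the edgeR fit, 2 of the 9 genes were called lower and 1 higher, against a background of 10.7% lower and 6.76% higher. NFE2L2 was called lower at a log2 difference of -0.33 (edgeR adjusted p = 0.0112), and GCLM at -0.32 (edgeR adjusted p = 0.0484). KEAP1 was called higher at 0.27 (edgeR adjusted p = 0.0429). The sizes of these differences moved little from those without the term. This fit leaves 2 degrees of freedom, and the term was derived from the data.

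Levels can be compared between genes per length of transcript, here as CPM per kilobase of the MANE Select transcript in siCtrl. TXNRD1 was highest at 283 ± 47.2 (SD, n = 3) and NQO1 followed at 173 ± 20.6. NFE2L2 stood at 42.7 ± 2.46 and KEAP1 at 28.1 ± 1.82. HMOX1 at 19.9 ± 1.92 and GCLM at 16.8 ± 1.24 had overlapping ranges, as did OSGIN1 at 6.67 ± 2.28 and GCLC at 6.60 ± 0.605. SRXN1 was lowest at 3.94 ± 0.747, and its highest siCtrl library at 4.80 lay above the lowest OSGIN1 library at 4.12. The reductases of thioredoxin and of quinones were thus far above the glutathione-synthesis subunits and sulfiredoxin. In siFAM53C, NFE2L2 at 34.2 and KEAP1 at 33.4 stood next to each other. The order depends on the length used. Per kilobase of all annotated exons, NFE2L2 stood at 6.98 in siCtrl, under KEAP1 at 20.2, GCLM at 15.1 and HMOX1 at 13.4, and SRXN1 at 3.94 stood above GCLC at 2.90 and OSGIN1 at 2.31.

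The genes with the profile most like that of NFE2L2 over the 5 libraries were INTS7, BAZ1A and CORO1C. Their root mean square difference from NFE2L2, on log2 CPM centred for each gene, was 0.013, 0.017 and 0.018, where NFE2L2 itself varied by 0.17 around its mean. They were the nearest of 9300 genes with a mean of at least 10 CPM, and with 5 libraries close matches occur among so many genes.

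A further 63 genes were listed by role, among them 4 antioxidant enzymes not held as NRF2 targets, and 58 of the 63 were tested. Of these, 4 were called lower and 0 higher with edgeR, beside 3.47% and 0.489% of all genes tested, and the median log2 fold change was -0.018, with 33 below 0 and 25 above. DESeq2 called 5 lower and 1 higher (ABCC3), and limma-voom called 4 and 0. At an unadjusted p of 0.05 edgeR placed 6 lower and 1 higher, beside 10.5% and 6.61% of all genes. The share placed higher was below that of all genes. The 4 belonged to NRF2 turnover (BTRC and GSK3B) and to glutathione supply and use (SLC7A11 and GPX4).

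SLC7A11, the light chain of the cystine importer that feeds glutathione synthesis, had the largest difference. It stood at 114, 132 and 143 CPM in siCtrl and at 47.6 and 64.6 CPM in siFAM53C. Both siFAM53C libraries lay far below siCtrl, by -1.21 on the log2 scale (SE 0.17, edgeR adjusted p = 0.00865), and by -1.37 and -1.15 within the split. The call was lost without siCtrl 2 (edgeR adjusted p = 0.0599) or without siFAM53C 1 (0.0588). Of its exon bases 865 are shared with the opposite-strand gene SLC7A11-AS1.

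GPX4, the glutathione peroxidase that reduces lipid hydroperoxides, stood at 179, 198 and 200 CPM in siCtrl and at 121 and 142 CPM in siFAM53C. It was lower by -0.54 (SE 0.12, edgeR adjusted p = 0.0482), and by -0.63 and -0.49 within the split. The other glutathione genes tested, among them GSTP1 (0.037, edgeR adjusted p = 0.912), did not pass the threshold, and the median of the 9 tested was -0.15.

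BTRC and GSK3B belong to the KEAP1-independent route of NRF2 degradation. BTRC stood at 39.8, 36.0 and 39.7 CPM in siCtrl and at 26.0 and 22.5 CPM in siFAM53C, lower by -0.67 (SE 0.13, edgeR adjusted p = 0.0343). GSK3B stood at 117, 120 and 123 CPM in siCtrl and at 83.3 and 88.6 CPM in siFAM53C, lower by -0.48 (SE 0.10, edgeR adjusted p = 0.0403). Neither gene's conditions overlapped. Of the other 11 genes of this group none was called. Among them FBXW11 stood at 78.6 to 87.3 CPM, above BTRC, with a log2 difference of -0.011 (edgeR adjusted p = 0.978). SQSTM1, which can withdraw KEAP1 by autophagy, stood higher without overlap (0.26, edgeR adjusted p = 0.348). Among all genes tested, 16.7% were higher without overlap. Of the 7535 exon bases of SQSTM1, 1687 are shared with the opposite-strand genes MGAT4B and MRNIP.

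The number of edgeR calls in these further lists changed with the libraries used. It was 1 without siCtrl 1, 0 without siCtrl 2, 0 without siFAM53C 1 and 1 without siFAM53C 2, and it was 1 with library totals in place of TMM scaling. BTRC, GSK3B and GPX4 lost the call in each of these 5 fits, while the differences stayed of similar size. With a library left out, the log2 difference ranged from -0.78 to -0.57 for BTRC, from -0.53 to -0.44 for GSK3B, from -0.66 to -0.44 for GPX4 and from -1.45 to -1.01 for SLC7A11.

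In the remaining groups no gene was called in either direction with edgeR, and DESeq2 called SLC40A1 lower and ABCC3 higher. The 8 thioredoxin and peroxiredoxin genes had a median of -0.088, with TXN, the thioredoxin reduced by TXNRD1, at -0.25 (edgeR adjusted p = 0.309). The 6 genes of NADPH supply had a median of 0.039, with TKT at 0.17 (edgeR adjusted p = 0.679) and TALDO1 at -0.28 (edgeR adjusted p = 0.250). The 7 tested genes of heme and iron handling had a median of 0.017. Among them the iron exporter SLC40A1 was at -1.0 on low levels of 3.44 to 8.64 CPM (edgeR adjusted p = 0.0800, DESeq2 adjusted p = 0.0128), and FTH1, whose many pseudogenes make its counts uncertain, was at 0.22 (edgeR adjusted p = 0.749). FTH1 also shares 1267 of its 2004 exon bases with BEST1 on the opposite strand.

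The 12 tested genes of detoxification and efflux had a median of 0.028, with the efflux pump ABCC3 at 0.91 (edgeR adjusted p = 0.116, DESeq2 adjusted p = 0.0436) and UGDH at -0.041 (edgeR adjusted p = 0.923). The 3 tested antioxidant enzymes that are not held as NRF2 targets had a median of -0.018, with SOD1 at -0.14 (edgeR adjusted p = 0.576) and GPX1 at -0.018 (edgeR adjusted p = 0.978). GPX2, HMOX2, AKR1C2 and ALDH3A1 did not pass the filter on low counts, and SOD2 was not matched by identifier. HMOX2 had a count of 0 or 1 in every library. Whether this reflects its expression or the counting was not tested.

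**Figure D4:**
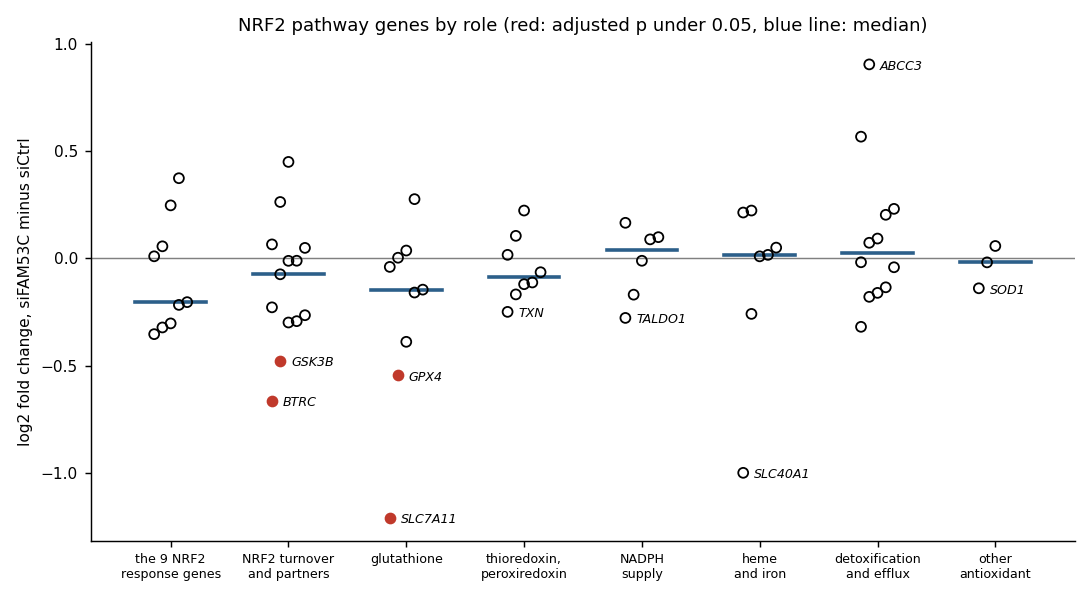
Log2 fold change of siFAM53C over siCtrl (y axis) for the 9 genes and the 58 tested further genes, in columns by role, with filled red points for an edgeR adjusted p under 0.05, open points for the rest and a blue line at each median. The 4 called genes, SLC7A11, GPX4, BTRC and GSK3B, lie below 0 in the columns for glutathione and for NRF2 turnover.

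The heptamer GACAAGA was searched in the longest annotated 3′ UTR of each gene because an earlier analysis of these counts had drawn attention to it. The heptamer was thus taken from these same data, and matches in genes called here are not independent of that choice. It was present in 15.1% of the 12096 tested genes with an annotated 3′ UTR. Of the 9 genes only SRXN1 held it, and of the 58 tested further genes 5 did: BTRC and SLC7A11, which were called, and TALDO1, TKT and CBR1, which were not. The sites of SRXN1 and of the called genes are printed 5′ to 3′ along the gene (GRCh38), with the heptamer in capitals.
SRXN1, chr20:646949-646975, minus strand: caataataagGACAAGAgcttttccca
BTRC, chr10:101553684-101553710, plus strand: tagcctctggGACAAGAaaaagaaaac
BTRC, chr10:101555916-101555942, plus strand: gagctacttgGACAAGAccagcatgcc
SLC7A11, chr4:138167174-138167200, minus strand: cagcctagggGACAAGAgcgcgagact

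The log2 difference was -0.67 for BTRC and -1.21 for SLC7A11, both called lower. Those of SRXN1 (0.37), TALDO1 (-0.28), TKT (0.17) and CBR1 (-0.16) did not pass the threshold. GSK3B and GPX4, which were also called lower, did not hold the heptamer, while the targeted gene FAM53C did. The UTRs searched ran to 4198 bases for BTRC, 7859 for SLC7A11, 5467 for GSK3B and 233 for GPX4. A longer UTR offers more places for a match. The part of the heptamer in these differences was not tested.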

How the data were processed

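Per the labels, poly(A) RNA of RPE-1 cells was sequenced as paired reads. By the study's methods, reads were trimmed with cutadapt (version 2.10 in the submitters' processing notes), mapped by HISAT2 against hg38 in its reverse-stranded mode, and summed per gene by featureCounts. The authors deposited raw counts per Ensembl gene in a table of all libraries, and the annotation release and the strand setting of the counting are not given in the sources used here. Identifiers were matched to GENCODE release 44. Genes passing filterByExpr (minimum count 10, minimum total 15) were scaled by TMM and tested with edgeR 4.0.16 (robust glmQLFit, condition only) in R 4.3.3, with Benjamini-Hochberg adjustment over all 15341 genes and a threshold of 0.05. The study's methods name DESeq2, kept here as an alternative (1.42.0), beside limma-voom (3.58.1), other scalings and filters, leaving out each library, replicate blocks and a term for the library split. The edgeR, DESeq2 and limma-voom fits were also run on simulated counts without a library split, so that check does not cover the split. Log2 CPM used a prior count of 2. The genes and lists were chosen with earlier results of these data known. Genes of a further list are named where called, where highest in mean CPM or where furthest from 0, and otherwise to account for a list.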

Additional observations from a re-analysis of the deposited data

How the results depend on the processing

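The count of the 9 genes called stayed at 0 in both directions with DESeq2, limma-voom, other size factors or library totals, other filters, robust estimation removed (an alternative chosen after seeing the data) and each library left out. It moved to 2 lower and 1 higher with a term for the library split, and to 1 lower (NFE2L2, -0.31, edgeR adjusted p = 0.0412) with a replicate block by the numbers in the column names. The replicate numbers were not shown to pair the libraries. Deviations from the condition means correlated at 0.17 and -0.28 in the pairs of the titles and at 0.17 and 0.37 in those of the column names. With only 2 siFAM53C libraries, their deviations mirror each other. These correlations are therefore tied to one another and cannot settle the pairing. The block by titles called 856 genes lower and 355 higher, and 0 of the 9 genes. At an unadjusted edgeR p of 0.05 it placed 5 of the 9 lower, and the share of all genes was not counted. The block by column names called 1350 lower and 642 higher, and 2 further pathway genes higher (ABCC3 and FTH1). The median of the 9 genes ranged from -0.28 to -0.037 over fits with a library left out, the latter without siFAM53C 2.

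Over all genes, 890 were lower and 257 higher with DESeq2, 961 and 375 with no filter, and 1636 and 1037 with the split term, 121 were higher with library totals, and leaving out a library gave 157 to 886 lower and 6 to 414 higher. Without siCtrl 1 the counts were 209 and 9, without siCtrl 2 they were 180 and 6, without siCtrl 3 they were 886 and 414, without siFAM53C 1 they were 157 and 10, and without siFAM53C 2 they were 199 and 27. The further genes called lower numbered 1 with library totals and 0 to 4 with a library left out, and those called higher numbered 1 with DESeq2 and 4 with the split term.

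Log2 differences near 0 changed sign in some fits. With a library left out, HMOX1 ranged from -0.054 to 0.074, GCLC from -0.087 to 0.18, GSTP1 from -0.0065 to 0.074, TKT from -0.041 to 0.34, FTH1 from -0.0032 to 0.37, UGDH from -0.24 to 0.13 and GPX1 from -0.18 to 0.12. Without a change of sign, TXNRD1 ranged from -0.43 to -0.037, NQO1 from -0.33 to -0.097, GCLM from -0.47 to -0.16, OSGIN1 from -0.73 to -0.063 and SRXN1 from 0.20 to 0.54, with the extremes of the first 4 in the fits without siFAM53C 1 or siFAM53C 2. NFE2L2 stayed between -0.37 and -0.28 and KEAP1 between 0.20 and 0.29. With the block by titles, HMOX1 was at -0.062, GCLC at -0.0098, GSTP1 at -0.014, FTH1 at -0.017 and UGDH at 0.0043. With library totals, UGDH was at 0.029 and GPX1 at 0.055. GPX1 was at 0.072 with the block by column names and at 0.054 with the split term. GPX4 lost its call without robust estimation (edgeR adjusted p = 0.0594). The cause of these shifts was not tested. With 3 against 2 libraries, the 95% intervals give the precision of each difference.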
